A study of Homo sapiens with 9 samples.

Results

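The inositol trisphosphate (IP3) receptor genes ITPR1, ITPR2 and ITPR3 were examined in H69 cholangiocytes, an established human bile duct epithelial cell line, in all 9 RNA sequencing libraries of the series. The members were chosen by name: they are the 3 genes of the family, of 61541 gene identifiers in the count tables, and each was found by its Ensembl identifier and counted in every library. ITPR3 transcripts were the most abundant, ITPR2 transcripts were intermediate and ITPR1 transcripts were the least abundant in 9 of 9 libraries. ITPR3 made up 69.2% to 84.3% of the family's transcripts. No member passed the test between Ctrl, Acetazolamide and Laminin511-E8.

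IP3 receptors are calcium channels in the membrane of the endoplasmic reticulum. They open when IP3, which phospholipase C cuts from a membrane lipid after a hormone or nucleotide receptor has been engaged, binds together with calcium, and each channel is a tetramer of 1 or several of the family's products. In bile duct epithelium, type III receptors lie mostly below the apical membrane, and calcium released through them is known to support chloride and bicarbonate secretion.

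All libraries came from wild-type H69 cells of 1 line, grown to confluency for 48 h in 12-well plates and then treated for 48 h with medium renewed after 24 h. The Ctrl group (n = 3) received DMSO as vehicle, the Acetazolamide group (n = 3) received 10 µM of this carbonic anhydrase inhibitor, and the Laminin511-E8 group (n = 3) received 0.25 µg/cm2 of a recombinant laminin fragment, from a protein of the basement membrane. Poly(A) RNA was sequenced, and the labels call the 3 libraries of a group biological replicates without saying on which day or from which passage each was grown. Total counts ranged from 12529867 to 39518899 per library.

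The identity of the cells was checked with fixed marker lists. Of 7 cholangiocyte markers, 6 had at least 10 counts in every library, among them KRT7, KRT19 and EPCAM, and 1 had no count in any library. Of 7 hepatocyte markers, 0 reached 10 counts in every library, and APOA1 and TTR were listed at 0. The same threshold was reached by 4 of 7 mesenchymal markers, led by VIM, by 1 of 7 leukocyte markers (CD14) and by 2 of 6 endothelial markers, with COL3A1, CD3E and CDH5 listed at 0. Levels are given as TPM, counts divided by transcript length and brought to the same sum in every library. The cholangiocyte markers summed to 4947 to 6839 TPM in Ctrl, 5844 to 5993 in Acetazolamide and 4677 to 4802 in Laminin511-E8, and the mesenchymal markers to 223.9 to 272.8, 251.5 to 265.6 and 288.8 to 315.5 TPM, respectively. The sums in Laminin511-E8 lay below and above those of both other groups, respectively, and their part in the results below was not tested. With TMM scaling, the median log2 fold change of the 4 mesenchymal markers tested was -0.03 against Ctrl and -0.09 against Acetazolamide, with 0 called. The higher mesenchymal sum was thus not that of the typical marker. For the 6 cholangiocyte markers tested, the medians were -0.38 and -0.24. In the edgeR test described below, 0 of the 6 cholangiocyte markers tested passed with TMM scaling. With each library's trend with GC content removed, only KRT19 passed. Its log2 fold change was -0.45 in Laminin511-E8 against Ctrl (edgeR adjusted p = 0.0137) and -0.49 against Acetazolamide (edgeR adjusted p = 0.0164). This test called 0.324% and 0.114% of 15737 genes in these comparisons, and 0 genes in either without Laminin511-E8 replicate 1. In a bulk sample, fewer cells of a type and less RNA per cell cannot be told apart.

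The members are near-relatives in protein but not in base composition, which bears on how their reads can be told apart. On GRCh38 with GENCODE release 29, ITPR1 (ENSG00000150995) spans chr3:4493345-4847840 on the plus strand, ITPR2 (ENSG00000123104) spans chr12:26336515-26833198 on the minus strand, and ITPR3 (ENSG00000096433) spans chr6:33620365-33696574 on the plus strand. The transcripts with the longest coding sequence have 62, 57 and 59 exons and 9589, 11405 and 9870 bases. Their coding sequences have 8274, 8103 and 8013 bases. Aligned end to end, the encoded proteins of ITPR1 and ITPR2 were identical at 71.0% of aligned residues, those of ITPR2 and ITPR3 at 67.5% and those of ITPR1 and ITPR3 at 65.5%.

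The longest stretch of residues shared by all members had 50 codons, near the end of the coding sequence, where the channel-forming part of these proteins lies. The part of it that falls in a single exon of each gene is shown, because it encodes the same 38 residues in all of them and yet differs in its bases. Capitals mark the 31 of 114 positions at which the members are not all the same:
ITPR1, chr3:4815104-4815217, plus strand, exon 59: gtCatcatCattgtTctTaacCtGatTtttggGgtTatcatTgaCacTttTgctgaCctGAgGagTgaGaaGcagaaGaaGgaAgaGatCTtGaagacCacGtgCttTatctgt
ITPR2, chr12:26398877-26398990, minus strand, exon 54: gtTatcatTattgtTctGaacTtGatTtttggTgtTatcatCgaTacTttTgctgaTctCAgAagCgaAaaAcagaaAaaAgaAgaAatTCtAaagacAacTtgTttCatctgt
ITPR3, chr6:33692779-33692892, plus strand, exon 56: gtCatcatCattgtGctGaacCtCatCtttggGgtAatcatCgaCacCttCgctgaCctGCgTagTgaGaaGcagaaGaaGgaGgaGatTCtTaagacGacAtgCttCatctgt

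In this stretch, G and C made up 41.2% of the bases in ITPR1, 30.7% in ITPR2 and 46.5% in ITPR3. Over the whole coding sequence the order was the same, with 49.3%, 43.0% and 58.4%, and at the last position of the codons the values were 60.1%, 45.5% and 84.3%. Over the transcripts, GC content was 47.2% in ITPR1, 42.1% in ITPR2 and 59.1% in ITPR3, against a median of 48.3% over the genes tested. ITPR2 stood at the 23.3rd percentile of these genes and ITPR3 at the 83.7th. No run of 50 bases was shared between any pair of the members' transcripts (0 shared), and the longest shared run was 29 bases, between ITPR1 and ITPR2.

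Other annotated genes overlap the members. UQCC2, which encodes an assembly factor of the mitochondrial respiratory chain, lies on the opposite strand and covers 1025 bases, or 10.4%, of the ITPR3 transcript. It had 15179 counts over the 9 libraries. Whether counting used strand is not stated in the labels or methods, so reads from these bases cannot be assigned to 1 of the 2 genes with certainty. The antisense gene ENSG00000235978 covers 1.36% of the ITPR1 transcript and had 20 counts in all, and the 3′ overlapping RNA ENSG00000256185 covers 1.10% of the ITPR2 transcript and had 0 counts.

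ITPR3, which encodes the type III receptor, had 8927, 5154 and 4586 counts in Ctrl, 11572, 5752 and 7072 in Acetazolamide and 4633, 8581 and 10834 in Laminin511-E8 (replicates 1, 2 and 3, respectively). Divided by transcript length and scaled to TPM, its levels were 65.2, 56.3 and 83.7 in Ctrl, 72.4, 52.8 and 91.4 in Acetazolamide, and 58.0, 86.7 and 60.02 in Laminin511-E8. The lowest and the highest of the 9 levels both belonged to Acetazolamide, and the 3 groups overlapped throughout. ITPR3 stood between the 76.4th and the 88.0th percentile of the TPM of the 13381 genes whose count was 10 or more in all libraries.

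ITPR2, which encodes the type II receptor, the form most sensitive to IP3, had 3081, 1853 and 1296 counts in Ctrl, 3251, 2633 and 1280 in Acetazolamide and 1729, 1914 and 3731 in Laminin511-E8. Its levels were 19.5, 17.5 and 20.5 TPM in Ctrl, 17.6, 20.9 and 14.3 TPM in Acetazolamide, and 18.7, 16.7 and 17.9 TPM in Laminin511-E8. Replicates 2 and 3 of Acetazolamide were again the extremes, but in the opposite order from ITPR3, and the groups overlapped in TPM. ITPR2 lay near the middle of the detected genes, between the 44.3rd and the 53.5th percentile.

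ITPR1, which encodes the type I receptor, the main form of neurons, had 335, 200 and 146 counts in Ctrl, 400, 269 and 203 in Acetazolamide and 222, 232 and 447 in Laminin511-E8. Its levels were 2.52, 2.25 and 2.74 TPM in Ctrl, 2.58, 2.54 and 2.70 TPM in Acetazolamide, and 2.86, 2.41 and 2.55 TPM in Laminin511-E8. ITPR1 stood between the 12.3rd and the 15.2nd percentile of detected genes, and its groups overlapped.

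**Figure D1:**
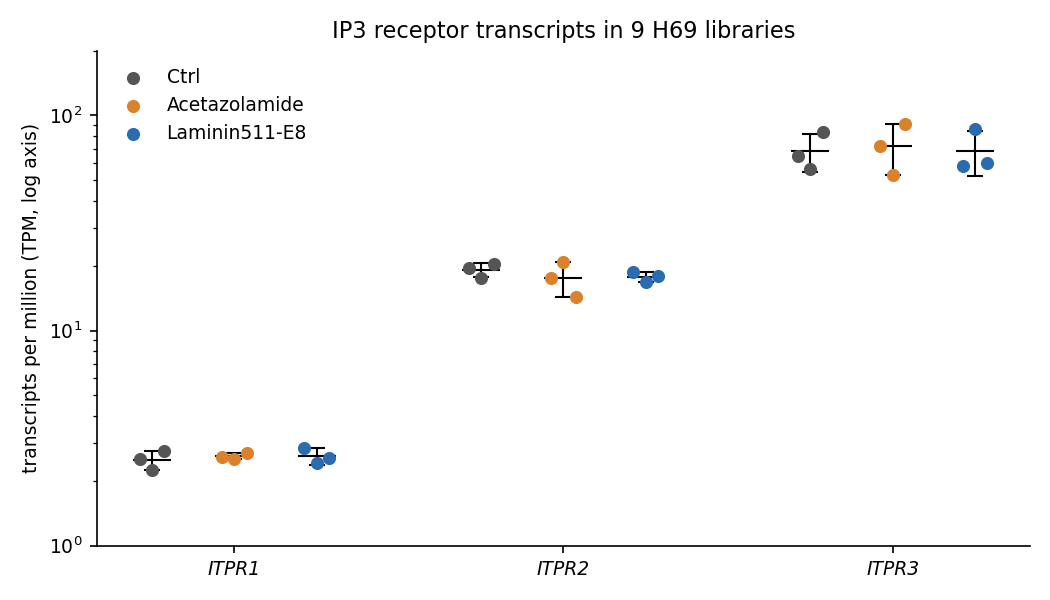
Level of each IP3 receptor gene in TPM, on a log axis, in the 9 libraries; points are libraries coloured by group, and black bars give the mean ± SD of the 3 libraries of a group. ITPR1 lies between 2.25 and 2.86 TPM, ITPR2 between 14.3 and 20.9 TPM and ITPR3 between 52.8 and 91.4 TPM, with no overlap between genes and overlap between all groups of a gene.

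Over the 9 libraries, the mean level was 69.6 ± 14.5 TPM (SD, n = 9) for ITPR3, 18.2 ± 2.02 TPM for ITPR2 and 2.57 ± 0.181 TPM for ITPR1. ITPR3 exceeded ITPR2 by 3.78-fold on average (range over libraries 2.52 to 6.38), and ITPR2 exceeded ITPR1 by 7.04-fold (5.30 to 8.23). ITPR3 exceeded ITPR1 by 26.6-fold (20.3 to 35.9). Each of these 3 differences had the same direction in 9 of 9 libraries, and the exact two-sided sign-flip permutation test gave p = 0.0039 for each, the smallest value that 9 libraries allow. None of the neighbours in this order overlapped. The size of the gap to ITPR1 depends on the length used, since the exons of all annotated ITPR1 transcripts together cover 32454 bases: with that length, ITPR2 exceeded ITPR1 by 21.3-fold and ITPR3 exceeded it by 90.1-fold, while ITPR3 exceeded ITPR2 by 4.22-fold.

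The share of each gene in the family, that is its counts per kilobase over the sum of the 3 genes, was then computed in every library. For ITPR3 the share was 74.8%, 74.0% and 78.3% in Ctrl, 78.2%, 69.2% and 84.3% in Acetazolamide, and 72.9%, 81.9% and 74.6% in Laminin511-E8. For ITPR2 it was 22.3%, 23.0% and 19.1% in Ctrl, 19.0%, 27.4% and 13.2% in Acetazolamide, and 23.5%, 15.8% and 22.2% in Laminin511-E8. For ITPR1 it was 2.89%, 2.96% and 2.57% in Ctrl, 2.78%, 3.33% and 2.49% in Acetazolamide, and 3.59%, 2.28% and 3.17% in Laminin511-E8. The spread between libraries of a treated group was thus wider than any difference between groups, and the highest ITPR3 share and the lowest ITPR2 share fell in the same library, Acetazolamide replicate 3.

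The mean share of ITPR3 was 75.7% ± 2.28 (SD, n = 3) in Ctrl, 77.2% ± 7.58 in Acetazolamide and 76.5% ± 4.80 in Laminin511-E8. ITPR2 took 21.5% ± 2.07, 19.9% ± 7.15 and 20.5% ± 4.14, and ITPR1 took 2.80% ± 0.209, 2.87% ± 0.428 and 3.01% ± 0.671, respectively. All 9 comparisons of shares between groups had overlapping libraries, and the exact two-sided permutation tests gave p = 0.7 to p = 1.0, each 1.0 after Benjamini-Hochberg adjustment over the 9. With 3 libraries against 3, such a test cannot go below 0.10. Leaving the bases shared with UQCC2 out of the length of ITPR3, with all its counts kept, put its share at 71.5% to 85.7% over the 9 libraries. A shorter length can only raise this share. The opposite case, in which reads of UQCC2 were counted as ITPR3, was not tested.

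**Figure D2:**
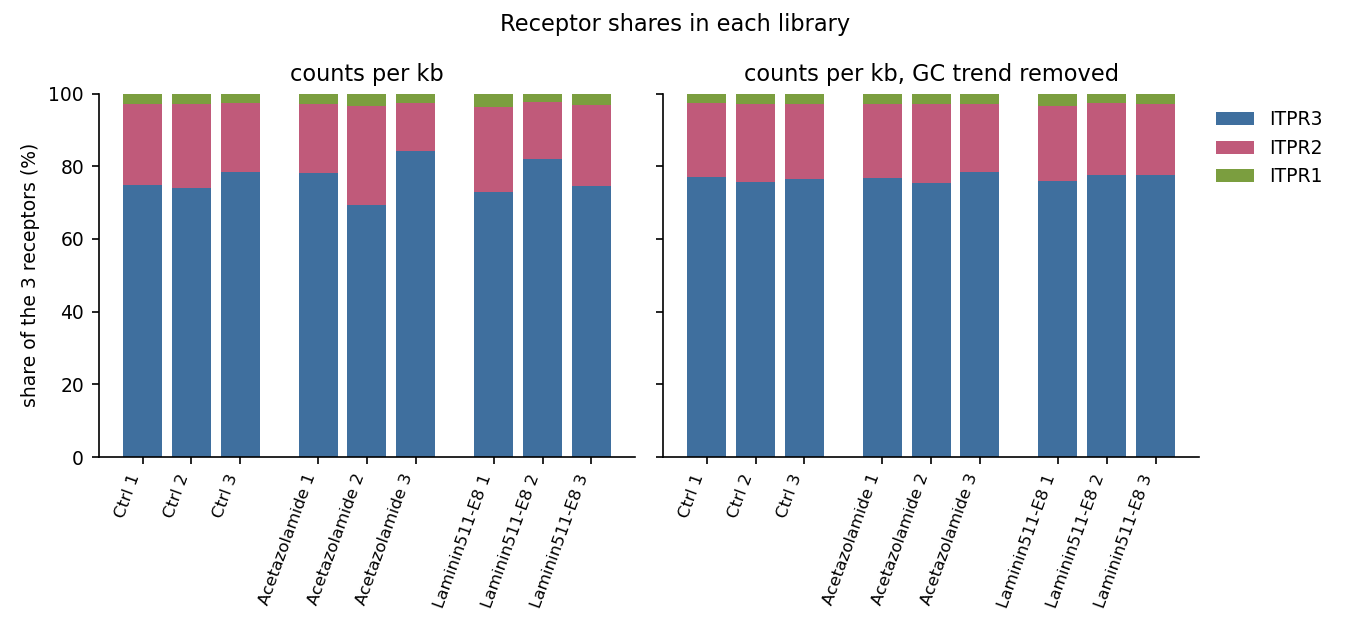
Share of ITPR1, ITPR2 and ITPR3 in the counts per kilobase of the family, in percent, with 1 bar for each library; the left panel uses the counts as deposited and the right panel the counts after each library's trend with GC content was removed. The ITPR3 share runs from 69.2% to 84.3% on the left and from 75.4% to 78.3% on the right. Any GC bias common to all libraries is not removed on the right.

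Whether either treatment changed the members was tested with edgeR's quasi-likelihood test over all 15997 genes that passed the filter on low counts, which all 3 members did. Called genes had a Benjamini-Hochberg adjusted p under 0.05. In each of the 3 comparisons 0% of the genes tested were called, members included, and 2.84%, 1.83% and 2.34% of genes had an unadjusted p under 0.05 in Laminin511-E8 against Ctrl, Acetazolamide against Ctrl and Laminin511-E8 against Acetazolamide, respectively. These percentages are the background for the members, of which 0 of 3 had an unadjusted p under 0.05 in each comparison. DESeq2 called 21, 7 and 19 genes and limma voom 0 in each, and neither called a member.

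With Laminin511-E8, the log2 fold change against Ctrl was -0.01 ± 0.21 (SE) for ITPR3, with a 95% confidence interval from -0.49 to 0.46. It was -0.12 ± 0.13 for ITPR2 (-0.42 to 0.18) and 0.04 ± 0.13 for ITPR1 (-0.24 to 0.33). The adjusted p from edgeR was 1.0 for each. With Acetazolamide, the log2 fold change against Ctrl was 0.03 ± 0.21 for ITPR3 (-0.45 to 0.50), -0.19 ± 0.13 for ITPR2 (-0.49 to 0.11) and -0.01 ± 0.13 for ITPR1 (-0.29 to 0.28), again with an adjusted p of 1.0 from edgeR. Both of these comparisons share the Ctrl libraries. In log2 CPM with TMM scaling, ITPR2 was 6.67, 6.75 and 6.67 in Ctrl and 6.64, 6.46 and 6.61 in Laminin511-E8, without overlap, whereas the other pairs of groups overlapped for each member. Groups did not overlap for 8.65% of the genes tested in this comparison, 5.31% in Acetazolamide against Ctrl and 6.13% in Laminin511-E8 against Acetazolamide. The estimate for ITPR2 with Acetazolamide moved with single libraries of that group: it was -0.31 without replicate 2 and -0.061 without replicate 3. With Laminin511-E8 it was -0.075 without replicate 2 of that group. Between the treatments, Laminin511-E8 minus Acetazolamide was -0.04 ± 0.21 for ITPR3 (-0.52 to 0.44), 0.06 ± 0.13 for ITPR2 (-0.24 to 0.36) and 0.05 ± 0.13 for ITPR1 (-0.23 to 0.33). The intervals were widest for ITPR3, the most deeply counted member, whose libraries differed most within groups.

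The within-group spread of ITPR3 and ITPR2, but not that of ITPR1, moved with each library's trend with GC content. This trend was taken as the fitted log2 deviation of genes near 60% GC minus that of genes near 40% GC. It was -0.24, -0.16 and 0.13 in Ctrl, 0.16, -0.54 and 0.75 in Acetazolamide, and -0.27, 0.50 and -0.32 in Laminin511-E8. Its extremes were replicates 2 and 3 of Acetazolamide, the same libraries that were lowest and highest in ITPR3. At the GC content of ITPR3 the fitted trend ran from -0.27 in Acetazolamide replicate 2 to 0.34 in Acetazolamide replicate 3, and at that of ITPR2 from 0.20 to -0.27 in the same libraries.

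The log2 CPM of ITPR3, its count scaled to the size of the library with TMM factors, followed this trend over the 9 libraries with Pearson's r = 0.96 (exact permutation p = 3.31e-05, adjusted p = 0.000298 over 9 relations) and Spearman's rho = 0.97 (exact permutation p = 0.000165, adjusted p = 0.00149). Without the 2 libraries whose trend lay farthest from the median of the 9, Acetazolamide replicate 3 and Laminin511-E8 replicate 2, r was 0.94. For ITPR2 the relation was inverse, with r = -0.88 (exact permutation p = 0.00215, adjusted p = 0.00966) and rho = -0.62 (exact permutation p = 0.0857, adjusted p = 0.362), and it fell to r = -0.54 without Acetazolamide replicate 3 and Laminin511-E8 replicate 2, so that it rested on these libraries. For ITPR1, whose GC content is near the median, r was -0.08 (exact permutation p = 0.831, adjusted p = 0.881) and rho was -0.03 (exact permutation p = 0.948). Within groups, with each value taken as its deviation from the group mean, r was 0.99 for ITPR3, -0.93 for ITPR2 and -0.07 for ITPR1. These within-group values were not tested, and were not computed without Acetazolamide replicate 3 and Laminin511-E8 replicate 2. ITPR2 and ITPR3 were themselves inversely related, with r = -0.77 (exact permutation p = 0.0121, adjusted p = 0.0362) and rho = -0.57 (exact permutation p = 0.121, adjusted p = 0.362), and r was -0.38 without Acetazolamide replicate 3 and Laminin511-E8 replicate 2. After removal of the GC trend that relation had the opposite sign, with r = 0.54 (exact permutation p = 0.135, adjusted p = 0.304).

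**Figure D3:**
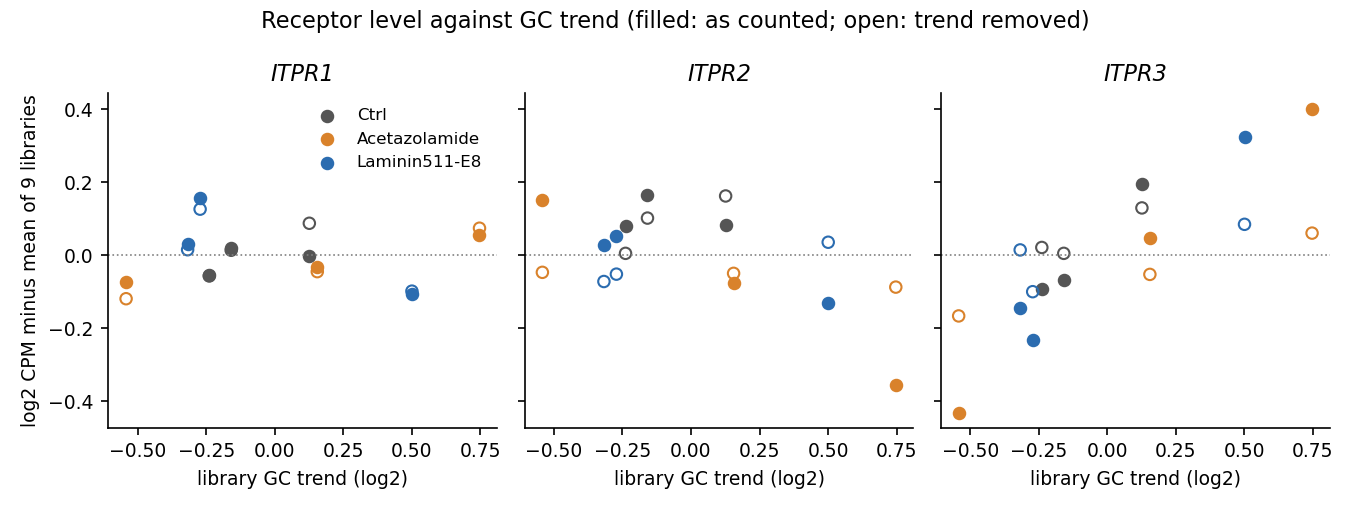
Log2 CPM of each receptor gene minus its mean over the 9 libraries, against the library's GC trend in log2 units; filled points are values as counted, open points are values after the trend was removed, and colours give the group. Filled points rise with the trend for ITPR3 (r = 0.96), fall for ITPR2 (r = -0.88) and do neither for ITPR1 (r = -0.08).

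With the trend removed, the pooled within-group SD of log2 CPM went from 0.31 to 0.09 for ITPR3 and from 0.16 to 0.06 for ITPR2, and from 0.09 to 0.10 for ITPR1. Before removal, the SD of ITPR3 was larger than that of 84.9% of genes of like level (within 0.5 log2 CPM, median SD 0.17), and afterwards larger than that of 52.5% of them (median SD 0.09). The ratio of ITPR3 to ITPR2 then varied by an SD of 0.09 on the log2 scale over the 9 libraries, against 0.41 before. The mean of this log2 ratio was 1.92 before and after, since the trend was fitted to deviations from each gene's mean over the libraries. Any GC bias common to all libraries thus stays in the shares that follow. The share of ITPR3 was 77.1%, 75.7% and 76.5% in Ctrl, 76.8%, 75.4% and 78.3% in Acetazolamide and 75.9%, 77.6% and 77.7% in Laminin511-E8 on this scale. The share of ITPR2 ran from 18.7% to 21.7% and that of ITPR1 from 2.57% to 3.34%. The shares of the groups still overlapped for all 3 genes. The log2 CPM of ITPR2 with the trend removed, however, was 6.59, 6.69 and 6.75 in Ctrl and 6.54, 6.54 and 6.50 in Acetazolamide, so that these groups did not overlap. The same held for 9.53% of 15737 genes in this comparison. In Laminin511-E8 against Ctrl (13.4% of genes without overlap) and against Acetazolamide (11.6%), all members overlapped on this scale, as did ITPR1 and ITPR3 in Acetazolamide against Ctrl.

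With the trend removed, the comparisons of the members had narrower intervals, and no member was called. In Laminin511-E8 against Ctrl, the test called 0.324% of 15737 genes, and the log2 fold change was -0.05 ± 0.07 (SE) for ITPR3 (95% confidence interval -0.22 to 0.11, edgeR adjusted p = 0.946) and -0.12 ± 0.07 for ITPR2 (-0.27 to 0.03, edgeR adjusted p = 0.765). In Acetazolamide against Ctrl, it called 0% of genes, and the log2 fold change was -0.10 ± 0.07 for ITPR3 (-0.26 to 0.06) and -0.15 ± 0.07 for ITPR2 (-0.30 to 0.00), each with an edgeR adjusted p of 0.928. ITPR2 had an unadjusted edgeR p of 0.049 there, as did 4.31% of genes with an unadjusted p under 0.05. In Laminin511-E8 against Acetazolamide, the test called 0.114% of genes, and the log2 fold changes were 0.05 ± 0.07 for ITPR3 (-0.11 to 0.21) and 0.03 ± 0.07 for ITPR2 (-0.12 to 0.18). For ITPR1 the intervals were close to those before removal, from -0.26 at the lowest to 0.26 at the highest.

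**Figure D4:**
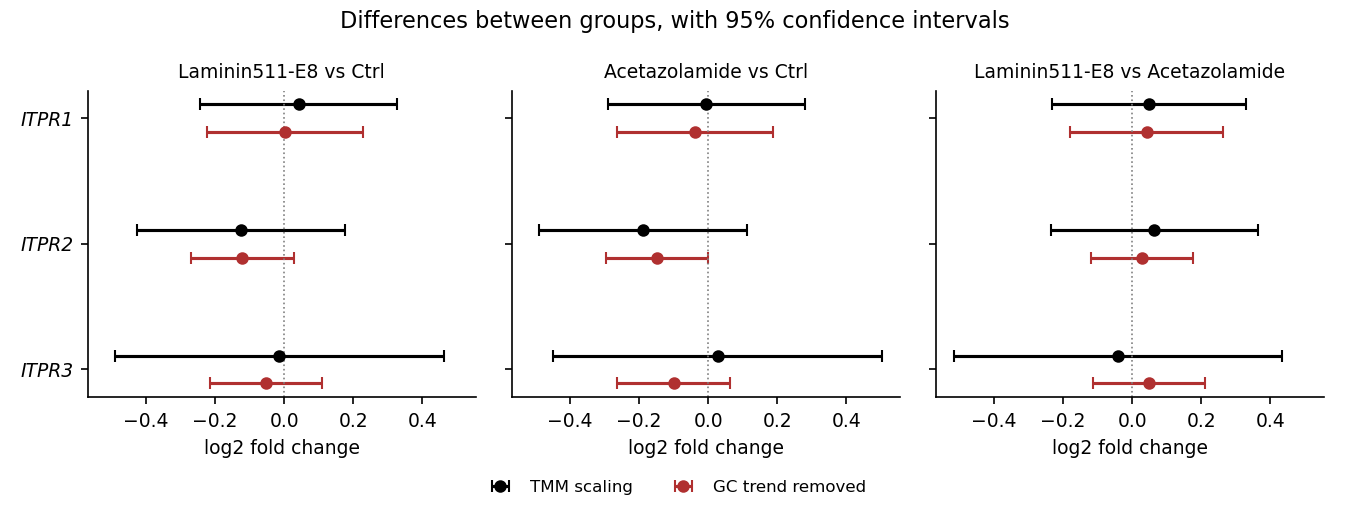
Log2 fold change of each receptor gene in the 3 comparisons of groups; points are edgeR estimates and bars are 95% confidence intervals, in black with TMM scaling and in red with each library's GC trend removed. The black interval of ITPR3 in Laminin511-E8 against Ctrl reaches from -0.49 to 0.46 and the red one from -0.22 to 0.11.

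All genes of a library share its depth and are subject to its GC trend, so what follows is a description only. The genes whose levels were most like those of each member over the 9 libraries were listed by Pearson's r of log2 CPM. For ITPR3 they were HCFC1 (r = 0.995), GTPBP6, TAOK2, HSPBP1 and ATXN2L, with a GC content of 60.1% to 65.8%, and 1672 of 15996 genes had r above 0.9. For ITPR2 they were PRPF38B (r = 0.985), ENSG00000272980, LRIF1, MITD1 and CROT, with a GC content of 39.1% to 42.0%, and 918 genes had r above 0.9. For ITPR1 they were OAS1 (r = 0.865), GAB3, ARHGAP40, the pseudogene YES1P1 and ENSG00000284634, and 0 genes had r above 0.9. With the GC trend removed, HCFC1 had r = 0.73 with ITPR3 and GTPBP6 had r = -0.25, while PRPF38B had r = 0.91 with ITPR2.

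The other genes of calcium release and its use were taken from 10 lists ordered by role, with 123 genes in all, of which 81 were tested. Of these, 0 of 81 were called in each of the 3 comparisons, both with TMM scaling and with the GC trend removed, and DESeq2 and limma voom also called 0. With TMM scaling, 2, 1 and 0 of the 81 had an unadjusted p under 0.05 in Laminin511-E8 against Ctrl, Acetazolamide against Ctrl and Laminin511-E8 against Acetazolamide, respectively. Of all 15997 genes tested with TMM scaling, 454, 292 and 374 did (2.84%, 1.83% and 2.34%). With the trend removed, 7, 4 and 6 of the 81 did. Of all 15737 genes tested with the trend removed, 1170, 679 and 826 did (7.43%, 4.31% and 5.25%). The median log2 fold change of the 81 genes was -0.02, 0.01 and 0.01 with TMM scaling and -0.03, -0.03 and 0.02 with the trend removed. Over all genes tested, the median was -0.003, 0.005 and 0.002 with TMM scaling and -0.012, -0.023 and 0.009 with the trend removed.

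Upstream of IP3, 11 of 25 cell surface receptors that raise it were tested. F2RL1, the protease-activated receptor PAR2, had 56.0 ± 4.98 TPM (SD, n = 9) and LPAR1, a receptor for lysophosphatidic acid, 48.1 ± 5.79 TPM. P2RY2, a nucleotide receptor of bile duct cells, had 4.30 TPM and HRH1, a histamine receptor, 7.76 TPM, both chosen after their values were seen. Of the muscarinic receptors listed, CHRM3 and CHRM5 were listed at 0 and CHRM1 had 1 count in all. Among G protein subunits, GNA11 had 48.3 ± 8.36 TPM and GNAQ 22.7 ± 4.46 TPM. The other 2 of this list, GNA14 and GNA15, had 4 and 6 counts over the 9 libraries and were not tested. Named here after their values were seen, LPAR1 had a log2 fold change of -0.23 in Laminin511-E8 against Ctrl with the GC trend removed (edgeR adjusted p = 0.319), and GNAQ one of -0.23 in Acetazolamide against Ctrl (edgeR adjusted p = 0.928).

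The enzymes that make and remove IP3 were present in variety. Of 13 phospholipase C genes, 9 were tested, led by PLCG1, which receptor tyrosine kinases activate, with 48.3 ± 7.43 TPM (SD, n = 9), and by PLCB4, which Gq proteins activate, with 41.2 ± 6.57 TPM. All 10 kinases and phosphatases of inositol phosphates in the list were tested. OCRL, a 5-phosphatase, had 50.1 ± 3.60 TPM and IMPA1, which frees inositol from its monophosphate, 37.5 ± 9.42 TPM.

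Among 26 partners and regulators of the receptors, 20 were tested. The most abundant was CALM2, which encodes the calcium sensor calmodulin, with 1357 ± 330.6 TPM (SD, n = 9). AHCYL1, whose product IRBIT competes with IP3 for the receptor, had 110.4 TPM and a log2 fold change of -0.17 in Acetazolamide against Ctrl with the GC trend removed (edgeR adjusted p = 0.928). FBXL2, the subunit of a ubiquitin ligase that acts on the type III receptor, had 5.06 TPM and a log2 fold change of 0.34 in Laminin511-E8 against Ctrl (edgeR adjusted p = 1.0). Both were chosen for mention after their values were seen. The ryanodine receptors, the other family of calcium release channels, had 7 (RYR1), 6 (RYR2) and 13 (RYR3) counts summed over the 9 libraries and were not tested.

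The endoplasmic reticulum store and the routes by which calcium leaves the cytosol completed the lists. Of 18 store genes 15 were tested, with the luminal calcium-binding proteins CALR at 1330 ± 120.4 TPM (SD, n = 9) and HSPA5 at 382.0 ± 26.8 TPM. For mitochondrial uptake 6 of 8 were tested, and MICU2, a regulator of the mitochondrial uniporter, had 58.5 ± 16.9 TPM. Export across the plasma membrane was represented by 3 of 7 genes, with the calcium pumps ATP2B1 at 92.2 ± 15.4 TPM and ATP2B4 at 60.6 ± 4.35 TPM. Of 9 secretion genes 5 were tested, with SLC4A2, the chloride-bicarbonate exchanger of bile duct cells, at 52.5 ± 13.5 TPM and ANXA11, a calcium-dependent membrane-binding protein, at 23.4 ± 3.38 TPM. Some genes that nearly all cells use were listed at or near 0 in these tables: SMDT1 of the mitochondrial uniporter had 0 counts and ORAI1 of store-operated entry had 3, so that a 0 for the secretion channel ANO1 says only that it is listed at 0.

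**Figure D5:**
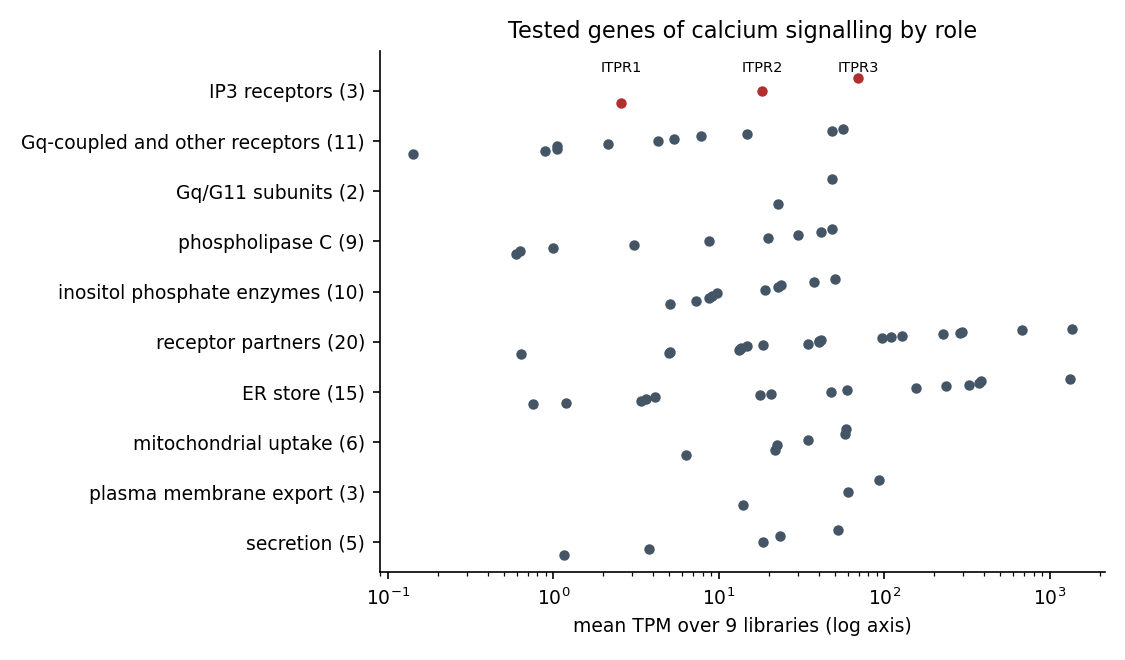
Mean TPM over the 9 libraries, on a log axis, of the tested genes in each role list, with the number of genes tested in brackets; each point is 1 gene, placed within a row in order of its level, and the IP3 receptors are in red. ITPR3, at 69.6 TPM, lies above the most abundant cell surface receptor (56.0 TPM) and phospholipase C gene (48.3 TPM), and ITPR1, at 2.57 TPM, lies below every tested gene for inositol phosphate enzymes and mitochondrial uptake.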

How the data were processed

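Poly(A) RNA of H69 cholangiocytes was sequenced in 9 libraries, 3 per group. The deposited files hold raw gene counts. Per the labels, reads were counted with HTSeq 0.11.0 after alignment to GRCh38 (the tools named are HISAT2 2.2.1, Trimmomatic 0.39 and FastQC 0.11.9). For the annotation release, the use of strand and the treatment of ambiguous reads, the setting is not given in the sources used here. Gene names came from a reference table for 61369 of 61541 identifiers and from GENCODE release 29 for a further 159, and 0 columns went unused.

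Counts were tested with edgeR 4.0.16 in R 4.3.3 (TMM, filterByExpr, robust quasi-likelihood fit of all 9 libraries, Benjamini-Hochberg adjustment, threshold 0.05). DESeq2 1.42.0, limma 3.58.1 (voom), other scalings, filters, a replicate block, leaving out each library and a threshold of 0.01 were alternatives. In another, each library's trend with transcript GC content (local regression, span 0.3) was removed, over 15737 genes. The trend was fitted to deviations from gene means, so any GC bias common to all libraries stayed. TPM and shares used the transcript with the longest coding sequence. Log2 CPM had a prior count of 2. Libraries of 12529867 to 39518899 counts limit precision, and the 3 libraries of a group differed by more than sampling noise (ratio of chi-square to its degrees of freedom 4.77 or more). The fits were tried on simulated counts with 200 genes changed by known folds. The simulation gave every gene the same dispersion, so its outcome is not used as a measure of sensitivity in these libraries. Python 3.11.15, pandas 2.3.3, SciPy 1.17.1 and matplotlib 3.10.9 were used for the rest.

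The members and lists were chosen with earlier results of these data known. Named genes are the members, some cell type markers, the 2 most abundant genes of each list and called pathway genes (there were 0). Overlapping genes and the 5 genes most like each member are named as well. So are some genes with counts at or near 0, and genes said to be chosen after their values were seen. Some genes covered by this rule are not reported here.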

Additional observations from a re-analysis of the deposited data

How the results depend on the processing

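No member was called under any of the 189 alternatives tried for its 9 comparisons (lowest adjusted p 0.481, for ITPR2 in Acetazolamide against Ctrl without Acetazolamide replicate 2, at a log2 fold change of -0.31; it was -0.061 without Acetazolamide replicate 3), and 27 of them turned the sign of a value near 0. With 3 libraries per group, and a within-group SD for ITPR3 that follows the GC trend, smaller differences than the intervals given were not detectable. These intervals are not adjusted for the number of genes tested, whereas calls are, so larger differences could also go uncalled. All 66 alternatives left the pathway genes at 0 called.

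For genes called in Laminin511-E8 against Ctrl, Acetazolamide against Ctrl and Laminin511-E8 against Acetazolamide, DESeq2 gave 21, 7 and 19, and removal of the GC trend gave 51, 0 and 18. Leaving out each library, with or without removal of the trend (leaving libraries out after its removal was chosen after seeing the data), gave 0 to 62, 0 to 3 and 0 to 23. With the trend removed, Laminin511-E8 against Ctrl had 1 call without Ctrl replicate 1, 15 without Ctrl replicate 3, 24 without Acetazolamide replicate 1, 19 without Laminin511-E8 replicate 2, 11 without Laminin511-E8 replicate 3 and 0 without Laminin511-E8 replicate 1. Laminin511-E8 against Acetazolamide then had 0 without Acetazolamide replicate 1 and 0 without any 1 of the Laminin511-E8 replicates, and Acetazolamide against Ctrl had 3 without Acetazolamide replicate 2. With all libraries, every setting other than DESeq2 and removal of the GC trend alone gave 0.

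The sign of the member log2 fold changes turned as follows. In Laminin511-E8 against Ctrl, ITPR3 was 0.017 with upper-quartile scaling and 0.016 with library totals, and ITPR1 was -7.1e-05 with the GC trend removed with the replicate block. In Acetazolamide against Ctrl, ITPR1 was 0.042 with upper-quartile scaling, 0.058 with library totals and 0.0053 with at least 10 counts in every library, and ITPR3 was -0.10 with the GC trend removed, -0.10 with the trend removed and the replicate block, -0.016 with no filter and -0.0068 with limma voom. In Laminin511-E8 against Acetazolamide, ITPR3 was 0.048 with the trend removed and 0.049 with the block as well. Leaving out each library gave -0.043 to 0.10, -0.059 to 0.027 and -0.017 to 0.10 for ITPR1 in the 3 comparisons, -0.21 to 0.075, -0.18 to 0.22 and -0.24 to 0.17 for ITPR3, and -0.18 to -0.075, -0.31 to -0.061 and -0.065 to 0.19 for ITPR2. The cause of these turns was not tested.

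For shares, in percentage points, removal of the GC trend turned Laminin511-E8 against Acetazolamide to -0.25 for ITPR2 and 0.24 for ITPR3. Leaving out each library gave, in the order of comparisons above, -0.080 to 0.58, -0.17 to 0.25 and -0.14 to 0.51 for ITPR1, -2.48 to 1.38, -5.39 to 1.72 and -2.69 to 4.42 for ITPR2, and -1.96 to 2.56, -1.97 to 5.56 and -4.79 to 2.74 for ITPR3. With the union of exons as length, the share of ITPR1 was 0.865% in Ctrl, 0.885% in Acetazolamide and 0.932% in Laminin511-E8, and that of ITPR3 in Ctrl 79.0%. With the coding length, ITPR1 in Ctrl was 2.56% and ITPR2 23.9%. Raw counts gave ITPR2 24.1% and ITPR3 73.3% in Ctrl. With the bases shared with UQCC2 left out of the length of ITPR3, but not of its counts, ITPR1 in Ctrl was 2.58%. That setting was chosen after seeing the data, as was the GC setting for shares.

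Replicate numbers are shared by the groups, but samples of 1 number did not deviate together in log2 CPM (correlations of deviations from -0.65 to 0.24). The numbers were not taken as pairs. These deviations still held each library's GC trend, so the correlations cannot show whether samples of 1 number were grown together. With the replicate block, the log2 fold changes of ITPR3 were 0.00, 0.02 and -0.02 and those of ITPR2 -0.12, -0.20 and 0.07, 0 genes were called in each comparison, also with the trend removed, and no call of a member changed.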
